A study of Homo sapiens with 3 samples.

Results

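The GTPase-centre side of domain II of human 28S ribosomal RNA runs from nt 1851 to nt 2400 of the deposited numbering. Its members are every A and C with a number in those bounds, 269 of the 2492 A and C of the rRNA (10.8%), made up of 95 A and 174 C. They were chosen by position alone. The table spans 5070 nt, the length of RNA28SN5 in the RefSeq table for GRCh38.p14, which lists 5 copies of the 28S gene. Reads cannot be assigned to a copy, so each value describes the pool of copies.

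The human embryonic kidney line HEK293 was compared in 3 groups of 1 library each. The cell line field gives HEK293, while the growth protocol names its T-antigen derivative HEK293T/17. One group received the solvent DMSO, another 10 µM of the translation inhibitor cycloheximide and the last 10 µM of the probe RiboBright, whose structure the labels do not give. All 3 incubations lasted 30 min, and nothing in the labels says that a group was cultured more than once. Dimethyl sulfate methylates A and C at the Watson-Crick edge where it is free, and reverse transcriptase misreads the methylated base. The value at each position is a mutation signal whose normalization is not given. From the values themselves, about 1 was taken to mark a highly reactive nucleotide. A high signal is read as a reactive, exposed base. No library without dimethyl sulfate was analysed here, so signal that a position gives without it cannot be told apart. Read counts are not given, so the depth behind a value is unknown.

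The GTPase-associated centre is the part of the large subunit where translation factors that hydrolyse GTP, such as eEF1A and eEF2, make contact during elongation. Its RNA folds as helices 42 to 44, with the hairpin loops of helices 43 and 44 packed against each other and bound by the stalk-base protein uL11. Downstream, an expansion segment known as ES15 lengthens domain II in vertebrates, and it is rich in G and C. Cycloheximide binds elsewhere, in the tRNA exit site of domain V.

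The sequences below show where the reactive bases lay in DMSO, since the results turn on their place in 2 hairpins of the centre and in 2 unlike arms of the expansion segment. They were read from the position names of the deposited table, 5′ to 3′ on the rRNA strand, with U written as t. Capitals mark each A or C whose DMSO signal reached 0.240, the 75th percentile of all A and C of 28S, which also serves as the level floor below. The first element precedes the centre, and the second is the centre itself. The bounds taken for the centre, nt 1930 to 2050, are approximate, and how far they match the helices named above was not tested.
nt 1851 to 1929: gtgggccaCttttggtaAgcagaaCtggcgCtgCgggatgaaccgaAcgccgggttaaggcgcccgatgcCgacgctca
nt 1930 to 2050: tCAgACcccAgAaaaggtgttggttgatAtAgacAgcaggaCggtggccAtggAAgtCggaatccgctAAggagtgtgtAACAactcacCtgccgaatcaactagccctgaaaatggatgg
Both arms of the GC-rich stretch follow, as the strands on either side of its predicted apical loop, and then the 3′ end.
5′ arm, nt 2070 to 2184: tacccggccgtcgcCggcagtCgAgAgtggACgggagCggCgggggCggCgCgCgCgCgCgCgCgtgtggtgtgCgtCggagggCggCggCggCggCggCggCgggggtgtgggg
3′ arm, nt 2191 to 2297: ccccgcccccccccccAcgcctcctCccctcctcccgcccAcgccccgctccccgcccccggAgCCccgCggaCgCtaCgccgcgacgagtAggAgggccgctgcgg
nt 2298 to 2400: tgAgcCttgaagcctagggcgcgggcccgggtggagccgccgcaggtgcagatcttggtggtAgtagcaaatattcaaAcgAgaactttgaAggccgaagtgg

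Signals in the stretch had a median of 0.112 (DMSO), 0.126 (cycloheximide) and 0.118 (RiboBright). Outside it the medians were 0.097, 0.102 and 0.101 in the same order. In DMSO 74 of 269 members reached the level floor (27.5%), against 24.7% of the A and C outside, 23.2% in the 5′ side of domain II (nt 1312 to 1850) and 24.4% in domain III (nt 2401 to 2880). All 74 were at the floor in cycloheximide too, and no member reached it there alone. Of the 62 with a RiboBright value, 60 were at the floor, and 17 further members reached it in that library. Counts at the floor, here and below, use signals before the scaling applied to ratios. The scaling factor of RiboBright was 0.912, so members just above the floor there fell under it after scaling. With 1 library a treatment none of these differences has a test.

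The libraries were not equally complete. DMSO and cycloheximide listed all 269 members, while RiboBright lacked 36, 35 C and 1 A, in 3 runs from C2119 to C2133, from C2186 to C2201 and from A2207 to C2226. Every gap lay in the GC-rich stretch, and 76 of its 113 members were within 25 nt of one. An exact 0 was listed for 3 members in DMSO, 4 in cycloheximide and 13 in RiboBright. The part of these gaps in any RiboBright difference in the GC-rich stretch was not tested beyond the counts given without those members. At the edges, A1850 just outside had 0.250, 0.294 and 0.302 in DMSO, cycloheximide and RiboBright, and C1856, the first inside, had 0.040, 0.042 and 0.050. At the other end A2396 inside had 0.163, 0.188 and 0.201, and A2401 outside had 0.617, 0.559 and 0.910.

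**Figure D1:**
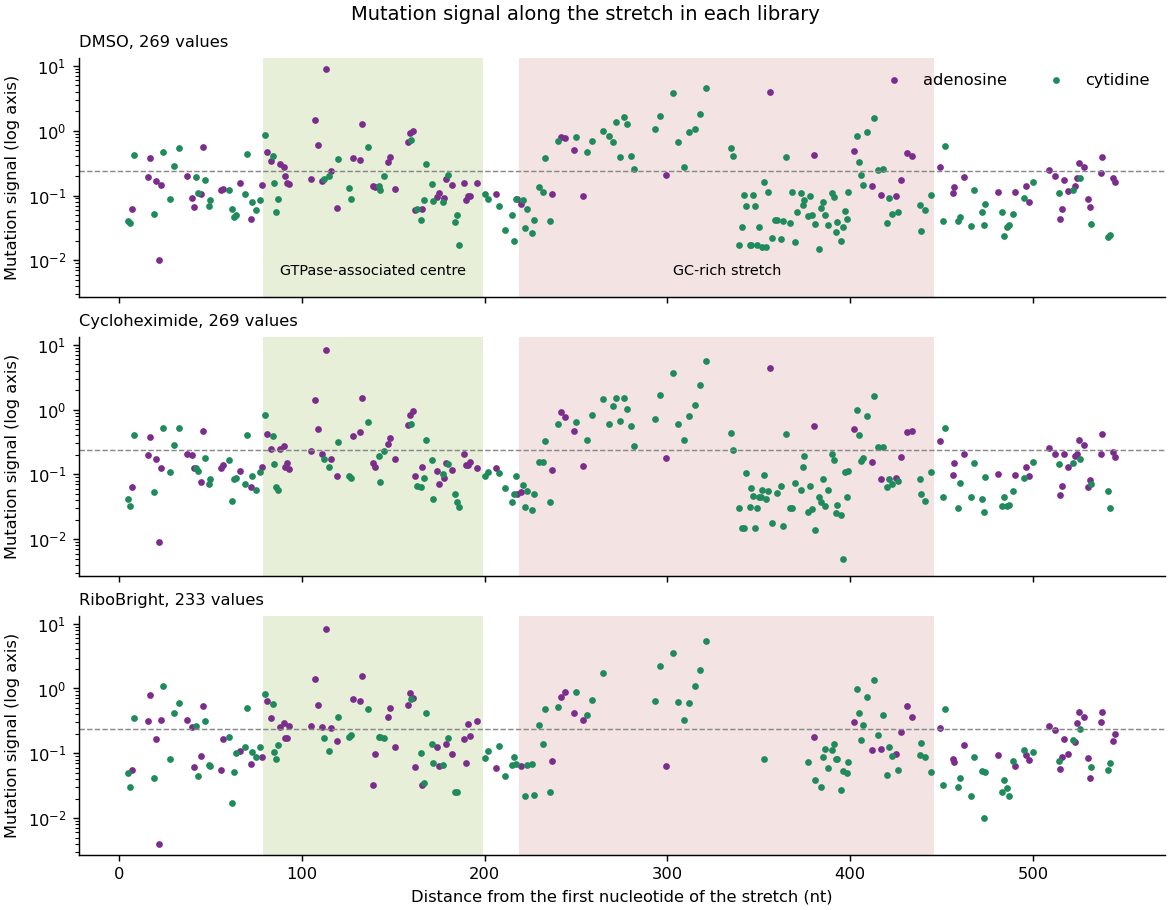
Mutation signal of each A and C (log axis) against its distance from the first nucleotide of the stretch, with 1 panel a library. The dashed line is the level floor of 0.240, and exact zeros (3, 4 and 13 values) are not drawn. In DMSO 26 of 38 members of the 5′ arm of the GC-rich stretch and 12 of 72 of its 3′ arm reach the floor.

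The most reactive member lay within the approximate bounds taken for the GTPase-associated centre. A1964 reached 8.974 (DMSO), 8.440 (cycloheximide) and 8.309 (RiboBright). In DMSO that was 67.5 times the median adenosine and rank 2 of the 2220 listed A and C of 28S. The signal stayed high in all libraries, with log2 ratios to DMSO of -0.17 and -0.24 after scaling. Its differences of -0.99 and -1.39 were the largest falls of the stretch in scaled signal under both compounds. Differences grow with level, so that rank follows largely from the high signal of this base. Both ratios were smaller in size than the robust SD of log2 ratios past the floor over 28S, 0.23 for cycloheximide and 0.38 for RiboBright. A1958, also predicted to be unpaired, had 1.457, 1.398 and 1.420 in DMSO, cycloheximide and RiboBright. A1960, chosen after its values were seen, had 0.610, 0.500 and 0.554. These 3 adenosines kept their order in each library.

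The hairpin loops of the centre were found through the motifs GGAAGTC, which occurs at 2 places in 28S and once in the centre, and GTGTAAC, which occurs at 1 place in 28S. Each was widened to the loop of the minimum free energy structure. The 9-nt loop of helix 43, nt 1979 to 1987, and the 8-nt loop of helix 44, nt 2005 to 2012, held 8 A and C. All 8 were at or past the floor in each of the 3 libraries.

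In the helix 44 loop A2009 had 0.663 (DMSO), 0.575 (cycloheximide) and 0.557 (RiboBright). A2010 had 0.908, 0.824 and 0.860 in that order. C2011 had 0.728, 0.606 and 0.689, and A2012 had 1.003, 0.958 and 0.712. The signal stopped at the loop's edge. A2013 and C2014, the next 2 bases and predicted to pair, had 0.060, 0.095 and 0.062 at the first and 0.062, 0.066 and 0 at the next, in the same library order. On the 5′ side of the stem A2002 had 0.127, 0.175 and 0.125. These stem bases were picked with their values known. All 4 loop members were lower than DMSO under each compound after scaling, and under the 3 other scaling settings too, with median log2 ratios of -0.25 for cycloheximide and -0.29 for RiboBright, and none was called. The largest was -0.62, at A2012 under RiboBright. Both comparisons share the DMSO library, so the shared direction is not 2 separate observations. Past the floor over all 28S the median log2 ratios were -0.06 for cycloheximide and -0.04 for RiboBright, with robust SDs of 0.23 and 0.38.

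In the helix 43 loop A1984 was the most reactive base, at 1.268 (DMSO), 1.504 (cycloheximide) and 1.552 (RiboBright). Its neighbour A1983 had 0.353, 0.458 and 0.640. A1979 had 0.379, 0.392 and 0.677, and C1987 had 0.556, 0.632 and 0.477. After scaling the 3 adenosines were above DMSO under RiboBright, by log2 ratios of 0.69 at A1979, 0.71 at A1983 and 0.16 at A1984, while C1987 was at -0.35. Those signs held under the 3 other scalings. Under cycloheximide the 4 ratios ran from -0.03 to 0.29, and the lowest, at A1979, was above 0 without scaling (0.05). None reached the 2-fold rule, and the robust SD of log2 ratios over all positions of 28S past the floor was 0.38 for RiboBright and 0.23 for cycloheximide.

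**Figure D2:**
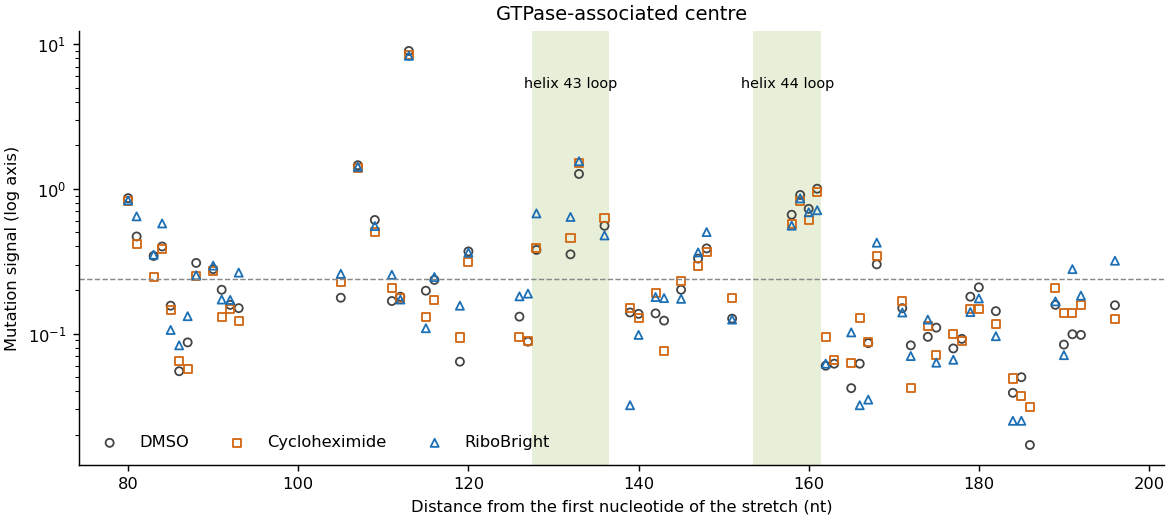
Signal of the A and C of the GTPase-associated centre in DMSO (circles), cycloheximide (squares) and RiboBright (triangles) against distance from the first nucleotide of the stretch, on a log axis. Shading marks the predicted loops of helices 43 and 44, whose 8 A and C all lie above the dashed floor of 0.240 in each library. 3 RiboBright values of 0 are not drawn.

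Over the whole centre, both loops included, 21 of 63 A and C were at the floor in DMSO (33.3%), 21 in cycloheximide and 27 in RiboBright. Without the 8 loop bases it was 13 of 55 in DMSO (23.6%), near the 24.7% outside the stretch, 13 in cycloheximide and 19 in RiboBright. These counts precede scaling. After it A1939, A1956, A1962 and A1967 were under the floor in RiboBright, and A1934 and A1939 were in cycloheximide. Another reactive patch opened the centre, with C1931 at 0.863, 0.824 and 0.833 in DMSO, cycloheximide and RiboBright. A1932 beside it had 0.469, 0.419 and 0.646. Both were chosen after their values were seen. From A2013 to the end of the centre C2019 alone was at the floor in DMSO, at 0.301 against 0.344 in cycloheximide and 0.425 in RiboBright. The opposite extreme was C2037, with 0.017, 0.031 and 0. Both were picked with their values known. Over the centre the median log2 ratio to DMSO was -0.13 under cycloheximide and -0.17 under RiboBright. The medians outside the stretch were -0.01 and -0.08. Domain III had -0.03 and -0.17, so the RiboBright median was not particular to the centre, and the 5′ side of domain II had -0.0004 and -0.09. Over the centre's members past the floor the medians were -0.17 and -0.08.

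A ribose 2′-O-methyl group leaves the Watson-Crick edge free, so such sites can still report. The stretch holds 5 A and C known to carry it, and 1 of them reached the floor in DMSO. C1881 had 0.285 (DMSO), 0.283 (cycloheximide) and 0.418 (RiboBright). A1871 had 0.169, 0.170 and 0.167, and A2363 had 0.203, 0.210 and 0.232. The cytidines C2351 and C2365 were lower, at 0.161, 0.158 and 0.103 and at 0.109, 0.145 and 0.075. None was called in any comparison.

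The longest run of 50-nt windows with at least 80% G and C after the centre was nt 2070 to 2297, about ES15, with 83.3% G and C. Its 5′ and 3′ arms differed in signal, a split chosen after the values were seen. Cytidines of the 5′ arm had a median signal of 0.669 in DMSO (n = 31), 0.607 in cycloheximide (n = 31) and 0.509 in RiboBright (n = 23). In the 3′ arm the medians were 0.055 (n = 63), 0.056 (n = 63) and 0.081 (n = 39). The 5′ arm was thus 12.2 times the 3′ arm in DMSO, 10.8 times in cycloheximide and 6.28 times in RiboBright. In DMSO 23 of 31 cytidines reached the floor in the 5′ arm and 7 of 63 in the 3′ arm. The ranges overlapped, from 0.026 to 4.586 and from 0 to 1.574. From C2191 to C2201 in the 3′ arm, DMSO values took only the levels 0, 0.017, 0.033, 0.068, 0.101 and 0.102. Whether so few levels reflect few reads was not tested. RiboBright lacked more values in both arms, and over positions listed in all 3 libraries the DMSO ratio was 11.2.

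**Figure D3:**
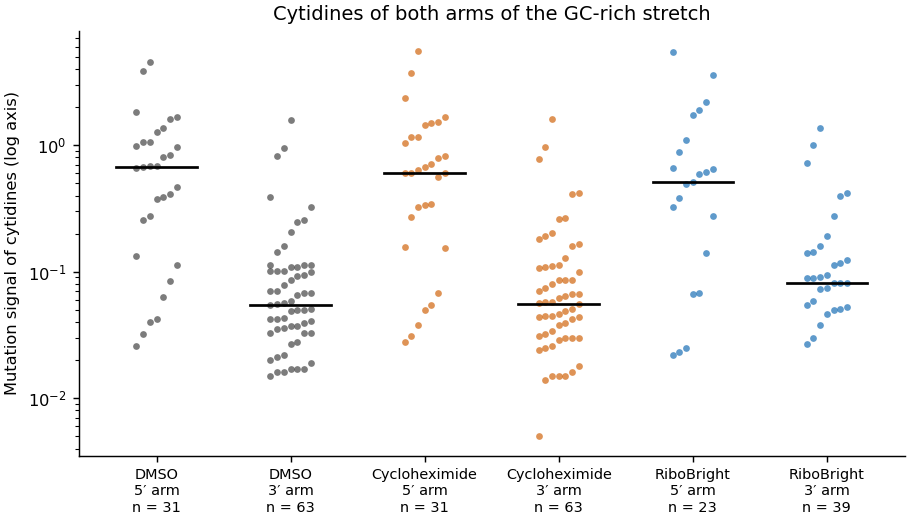
Signal of each cytidine in the 5′ and 3′ arms of the GC-rich stretch, by library, on a log axis. Black bars are medians over the n values listed, and exact zeros (0 and 3 in DMSO, 0 and 4 in cycloheximide, 1 and 8 in RiboBright, for the 5′ and 3′ arm) enter the median but are not drawn. The 5′ arm is higher in each library and the ranges overlap.

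The arms also differ in sequence. In the 5′ arm 19 of 31 cytidines stand alone between 2 guanosines, and all 19 reached the floor in DMSO, with a median of 0.965 and a range from 0.256 to 4.586. Cytidines between 2 guanosines outside the stretch had a median of 0.169, and 41.9% of the 179 listed reached the floor. In the stretch but outside the GC-rich part, 1 of 7 did, with a median of 0.107. The 3′ arm is made mainly of C runs. Its 25 cytidines between 2 cytidines had a median of 0.043, and those outside the stretch had 0.032 (n = 215). Low signal in C runs was thus found in both places, while isolated cytidines of the 5′ arm had a higher median than the same context elsewhere. That difference has no test.

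The 5′ arm opens its reactive part with mixed A and C. A2093 had 0.808 (DMSO), 0.927 (cycloheximide) and 0.740 (RiboBright), A2095 had 0.784, 0.782 and 0.880, and C2101 had 0.8, 0.635 and 0.886. All 3 were picked with their values known, and each stayed within 1.5-fold. C2116, just before the repeats, had 0.978, 1.434 and 1.747, and C2147, between them, had 1.661, 1.682 and 2.193. The high signal of the arm then ran through 2 repeats. The first is a run of 8 GC units, nt 2118 to 2133, whose cytidines had 0.256 to 1.621 in DMSO, with a median of 0.752, and 0.272 to 1.536 in cycloheximide, with a median of 0.854. C2127 was its highest in DMSO at 1.621, with 1.502 in cycloheximide, and C2123 had 1.358 and 1.536. RiboBright lists no value in the repeat. The second is a run of 7 GGC units, nt 2152 to 2172, listed in every library. Its first cytidine, C2154, had 3.838 (DMSO), 3.719 (cycloheximide) and 3.561 (RiboBright). The cytidine of unit 3, C2160, was the lowest, with 0.278, 0.336 and 0.326, and was picked with its values known. The signal then climbed to C2172, the last unit, at 4.586, 5.605 and 5.446. High ends and a low unit 3 recurred in all 3 libraries. Of the 3 other GGC runs of at least 5 units in 28S, that at nt 848 to 865 had a DMSO median of 0.225 and a range from 0.058 to 1.464. The run at nt 869 to 889 had a DMSO median of 0.555 and a range from 0.212 to 5.945, and that at nt 3491 to 3505 had 0.142 to 0.576. RiboBright lists no value in those other runs.

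**Figure D4:**
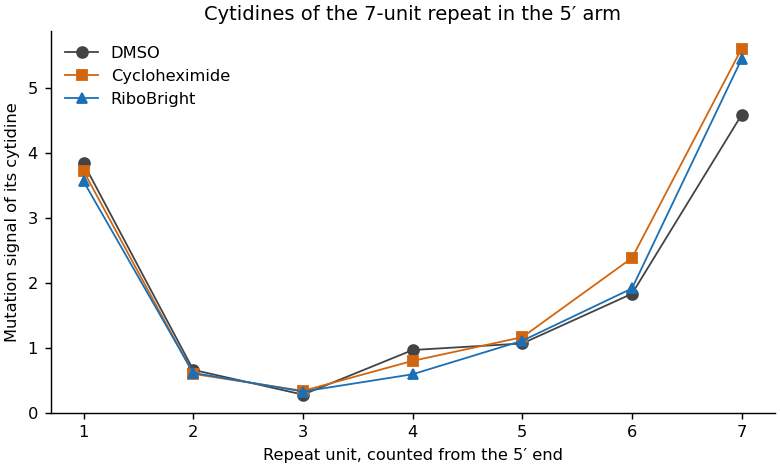
Signal of the cytidine in each of the 7 GGC units, counted from the 5′ end, in the 3 libraries. In each library the first and last units are the highest and unit 3 is the lowest, at 0.278, 0.336 and 0.326.

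Of the 72 A and C of the 3′ arm 12 were at the floor in DMSO, most of them from A2253 on. A2207, between an 11-nt run of C and a further cytidine, had 3.920 in DMSO and 4.343 in cycloheximide, and no RiboBright value. In DMSO it ranked 6 of 770 adenosines. The 11 cytidines before it had 0 to 0.159 in DMSO and 0.015 to 0.099 in cycloheximide. Those from C2196 to C2201 lie where DMSO values took few levels. C2264, near the 3′ end of the arm, had 1.574, 1.625 and 1.373 in DMSO, cycloheximide and RiboBright. C2255 and C2260, chosen after their values were seen, had 0.822, 0.973 and 0.998, and 0.950, 0.783 and 0.727.

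The 103 nt after the GC-rich stretch held 46 members, of which 6 were at the floor in DMSO, 6 in cycloheximide and 8 in RiboBright. C2303, just past the base of the expansion segment, was the highest there, at 0.572, 0.524 and 0.486. Adenosines near the 3′ end came next, with A2389 at 0.399, 0.418 and 0.439. Both were picked with their values known. None of the 46 was called in any comparison. The 9 members between the centre and the GC-rich stretch, nt 2051 to 2069, were all under the floor, with maxima of 0.107, 0.125 and 0.129.

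Pairing predicted with RNAfold from sequence alone matched the signal in part. Predicted unpaired members had a DMSO median of 0.172 (n = 101) and paired ones 0.0865 (n = 168), a ratio of 1.99. Members at the floor made up 41.6% and 19.0% of them. Cytidines had medians of 0.278 (n = 39) and 0.068 (n = 135), and the unpaired one was 0.134 where pairs could span at most 150 nt. For adenosines the medians were 0.163 (n = 62) and 0.157 (n = 33), while 35.5% of unpaired and 24.2% of paired ones were at the floor. The prediction treats the stretch as naked RNA without proteins.

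Against DMSO, cycloheximide had no member called by the rule used here. A position was called where scaled signals differed at least 2-fold on log2 values with a pseudocount of 0.0104 and the higher one reached the floor. This is a rule of size, not a test. Of 74 members past the floor 0 were called, while over all 28S 4.59% of 588 positions were, 2.72% higher and 1.87% lower. Most of those calls lay near gaps in the tables: without positions within 25 nt of a missing value, 0.513% were called over 28S and 0 of 47 members. No p-value exists with 1 library a treatment. Log2 ratios past the floor ran from -0.79 to 0.70 in the stretch, and 70 of 74 members lay within 1.5-fold (94.6%), against 88.1% outside. The 5′ side of domain II and domain III also had 0 called, of 65 and 58, and 100% within 1.5-fold in each. Neither has an A or C within 25 nt of a missing value. All 4 members beyond 1.5-fold were in the GC-rich stretch and within 25 nt of a missing value. Of them, C2121, C2125 and C2187 have no RiboBright value. C2121 had 0.669 in DMSO and 1.155 in cycloheximide, and C2125 had 0.388 and 0.671. Both lie in the GC repeat, where log2 ratios ran from -0.53 at C2119 to 0.70 at C2121. C2144 had 1.052 and 0.704, and C2187, chosen after its values were seen, had 0.401 and 0.241. Within the centre all 21 members past the floor lay within 1.5-fold.

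Against DMSO, RiboBright had 4 of 74 members past the floor called (5.41%), close to the 5.22% of 498 positions called over all 28S. Of these 4, 3 were higher and 1 lower, and the shares over 28S were 2.61% higher and 2.61% lower. Without scaling 7 of 79 were called, 6 of them higher, against 7.16% over 28S. In the main setting 56 of the 74 members lay within 1.5-fold (75.7%), against 83.0% outside the stretch. The 5′ side of domain II had 92.4% and domain III 92.1%. C1875 had 0.476 (DMSO), 0.517 (cycloheximide) and 1.080 (RiboBright), a log2 ratio to DMSO of 1.03. A2042, in the AAAA run at the end of the centre, had 0.099, 0.139 and 0.279, a ratio of 1.28. A2105 had 0.099, 0.135 and 0.325, a ratio of 1.49. Both A2042 and A2105 were under the floor in DMSO and passed it through RiboBright alone. C1875, A2042 and A2105 were called for being higher in RiboBright, and no member was called for cycloheximide. That RiboBright was the highest library there, with cycloheximide nearer to DMSO, thus follows largely from the selection. A2231, an adenosine inside the C-rich 3′ arm, had 0.418, 0.563 and 0.176, a ratio of -1.33. It was past the floor in DMSO but not in RiboBright. A2105 and A2231 lie within 25 nt of a missing value, and without such positions 2 of 58 members were called, against 3.30% over 28S.

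**Figure D5:**
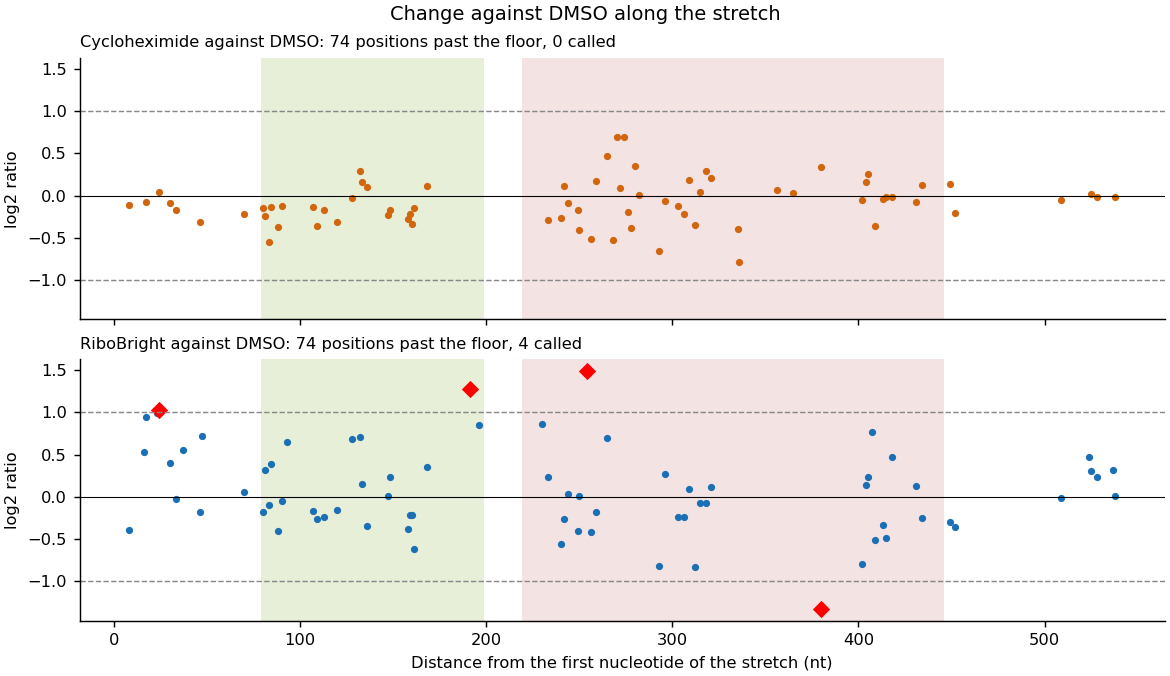
Log2 ratio to DMSO of each member past the level floor, for cycloheximide (top) and RiboBright (bottom), against distance from the first nucleotide of the stretch. Dashed lines mark 2-fold and red diamonds mark called positions, 0 for cycloheximide and 4 for RiboBright. Shading marks the GTPase-associated centre (left) and the GC-rich stretch (right).

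Upstream of the centre, nt 1851 to 1929, 7 of 38 members were at the floor in DMSO, 7 in cycloheximide and 13 in RiboBright, 6 of which were under it in DMSO. After scaling, A1891 and C1893 were under the floor of 0.2402 in RiboBright, at 0.2345 and 0.2399. Of the 7 at the floor in DMSO, 4 were higher and 3 lower in RiboBright after scaling, with a median log2 ratio of 0.05. The highest ratios among them were those of C1875 and of A1868, which had 0.373 (DMSO), 0.375 (cycloheximide) and 0.801 (RiboBright), a ratio of 0.95 that missed the 2-fold rule. The lowest was that of C1859, with 0.420, 0.410 and 0.348, a ratio of -0.39. A1874, under the floor in DMSO, had 0.144, 0.127 and 0.326, a ratio of 1.00 after rounding that also missed the rule. C1859 was picked with its values known. Over all 38 members 20 were higher and 18 lower, with a median ratio of 0.03 and quartiles of -0.33 and 0.41. No A or C lacked a value within 25 nt of these members. Without scaling, A1868, A1874 and A1891 were called too.

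RiboBright and cycloheximide, given at the same concentration for the same time, formed the 1 pair of compounds. Of 73 members past the floor 5 were called (6.85%), 4 higher in RiboBright and 1 lower. Over all 28S 5.76% of 486 positions were called, 3.91% higher and 1.85% lower. Without scaling 8 of 79 members were called, 7 of them higher, against 6.36% over 28S. The 4 higher positions were A1868, A1874, A2047 and A2105, with log2 ratios of RiboBright to cycloheximide of 1.02, 1.24, 1.22 and 1.15. Of these, A1874, A2047 and A2105 were under the floor in cycloheximide and passed it through RiboBright alone. A2047 had 0.157 (DMSO), 0.126 (cycloheximide) and 0.319 (RiboBright). The lower position was A2231, at -1.67, which was past the floor in cycloheximide but not in RiboBright. C1875 had a ratio of 1.00 after rounding and missed the rule. Of the 7 positions called in any comparison 6 were adenosines. The split of calls by base over all 28S was not worked out, so no preference for a base can be read from this count. Over all 233 members compared the middle of the ratios, between quartiles, ran from -0.45 to 0.27 with a median of -0.07. A difference inside that range could not be told from the spread between positions, and 1 library each does not show that the compounds act alike here. Both comparisons with DMSO share its library, so their values stand side by side.

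Cut into 50-nt windows, the stretch had its lowest median log2 ratio of cycloheximide to DMSO, -0.15, at nt 1901 to 1950. The highest, 0.06, fell at nt 2351 to 2400. RiboBright was lowest against DMSO at nt 2301 to 2350, with -0.44, where 1 of 22 members was at the floor in each library, and highest at nt 2351 to 2400, with 0.16. Against cycloheximide it was lowest at nt 2301 to 2350 too, with -0.36, and highest at nt 2101 to 2150, with 0.17 over 8 of 16 members. The whole stretch had medians of -0.03 under cycloheximide and -0.13 under RiboBright, and these took the other sign in 2 of 8 and 1 of 8 alternative settings. Across the 233 members listed in all libraries, which share a library's depth and scaling, log2 signal had a Pearson correlation of 0.959 between cycloheximide and DMSO, and 0.881 between RiboBright and DMSO. The same correlations outside the stretch were 0.952 and 0.883 (n = 1605).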

How the data were processed

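Per the labels' protocols, TRIzol RNA from HEK293 cells was copied by the reverse transcriptase TGIRT-III with random primers, giving 1 library for each of 3 treatments. The authors deposited a mutation signal per nucleotide, of which the A and C values were used. The tools cutadapt and Bowtie2 and the build hg38 appear, per the submitters' processing notes, with no roles. For the mutation counter, normalization, coverage minimum and background subtraction, the method was not given in the sources used here. About 1 marks a highly reactive base, as read from the values.

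For ratios, medians of values above 0 over all A and C of 28S were set equal to that of DMSO (factors 0.945 for cycloheximide and 0.912 for RiboBright, or -0.08 and -0.13 on the log2 scale). Ratios are log2 of the scaled signal plus a pseudocount of 10% of that DMSO median (0.0104), which understates changes at low levels. The rule of size was run on all of 28S and tried on simulated data. The simulation planted changes well past 2-fold at positions of high signal. It had less noise than the RiboBright ratios to DMSO and no missing values. It therefore cannot show how the rule fares near 2-fold, or near gaps, in these libraries. Structure was predicted with RNAfold 2.7.2, and other steps used Python 3.11.15 with pandas 2.3.3. A missing value was treated as not measured. The series table was used whole, with 0 columns set aside.

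Named positions are the called members, the 15 highest in DMSO, the 5 largest rises and falls in scaled signal per comparison, the loop and 2′-O-methylated bases, and the edges, 40 in all and named only in part. Members and lists were chosen with earlier results of these data known. Alternatives covered scaling, pseudocount, floor, fold, missing values, bounds and folding.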

Additional observations from a re-analysis of the deposited data

How the results depend on the processing

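No paired analysis was possible because each treatment has 1 library, and for the same reason no library could be left out. Each share in parentheses is that called over all 28S at the same setting. Cycloheximide called 0 members under each alternative except a floor at the DMSO median, with 3 of 169 (7.49%), and a 1.5-fold rule, with 4 of 74 (11.1%). RiboBright against DMSO called 7 of 79 without scaling (7.16%), 7 of 78 when 90th percentiles were matched (6.13%) and 7 of 78 when each base was scaled apart (6.31%), of which 6 were higher each time. It called 14 of 151 past that lower floor (9.002%), 6 higher and 8 lower, 1 of 25 past a floor at the 90th percentile (2.45%), 18 of 74 at 1.5-fold (18.1%), 0 of 74 at 3-fold (1.81%) and 2 of 58 without positions near a missing value (3.30%). RiboBright against cycloheximide called 8 of 79 without scaling (6.36%), 8 of 78 with each base scaled apart (6.59%), 3 of 73 with a pseudocount of 50% (4.12%), 17 of 147 past the lower floor (9.03%), 8 higher and 9 lower, 1 of 23 past the higher floor (3.54%), 12 of 73 at 1.5-fold (18.1%), 1 of 73 at 3-fold (1.44%) and 3 of 57 away from missing values (3.86%).

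The other alternatives kept each count within 1.5 times. Medians over the centre were below 0 in all 10 alternatives against DMSO, ranging between -0.17 and -0.05 for cycloheximide and between -0.21 and -0.04 for RiboBright. Medians over the whole stretch changed sign in 2 of 8 alternatives under cycloheximide (-0.09 to 0.05) and in 1 of 8 under RiboBright (-0.17 to 0.01). Over the GC-rich stretch they did so in 3 of 8 (-0.07 to 0.06) and 2 of 8 (-0.27 to 0.05). The ratio of predicted unpaired to paired signal was 2.02 to 2.20 in its 3 alternatives. The 5′ to 3′ arm ratio, with alternatives chosen after the data were seen, was 6.28 in RiboBright, 10.8 in cycloheximide and 13.8 without cytidines next to a cytidine. Of 530 alternative values at named positions, 0 moved by more than the robust SD of single positions. That SD was 0.23 for cycloheximide and 0.38 for RiboBright against DMSO. The scaling factors are only -0.08 and -0.13 on the log2 scale, so leaving them out could not move a value that far. The count is thus no measure of how stable single positions are. Depth is not given, so it cannot be said how many reads lie behind a low value, also where few levels recur in the 3′ arm.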
